A study of Mus musculus with 2 samples.

Results

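The 50 genes described here mark the blood vessels and coverings of the brain, and were taken by a fixed list of symbols from the 55536 annotated genes of the deposited tables. All 50 symbols matched a single gene. The list was divided into 29 genes of barrier endothelium, 8 of pericytes, 3 of smooth muscle, 6 of fibroblasts and 4 of the basement membrane. They were measured by total RNA-seq of left cerebral cortex tissue. The donors were 2 female mice, aged 36 days, of the strain B6CASTF1/J, an F1 hybrid with 1 C57BL/6J and 1 CAST/EiJ parent. Each mouse gave 1 stranded library from 300 ng of RNA, with ribosomal RNA depleted and ERCC spike-ins (synthetic RNAs of known amount) added. Both mice belong to 1 group, with no treatment, mutation or second tissue, so no p-value was computed. The mice are called replicate 2 and replicate 1, as the labels number them, and every ratio is replicate 2 over replicate 1.

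Brain capillaries are lined by endothelial cells that form the blood-brain barrier: tight junctions seal the gaps between them, while transporters carry nutrients in and pump foreign compounds out. Pericytes wrap the capillaries and share a basement membrane of type IV collagen, laminin and nidogen with the endothelium. Endothelial cells recruit pericytes by releasing PDGF-B, which binds the receptor PDGFR-beta on the pericyte. Arteries carry contractile smooth muscle, and fibroblasts that make fibrillar collagen lie in the meninges and around larger vessels. These cells make up a small part of cortical tissue, and in bulk RNA fewer cells of a type and less RNA per cell cannot be told apart.

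Annotated genes held 35026452 expected counts in replicate 2 and 29314377 in replicate 1, of which the 50 genes took 45805 in replicate 2 and 41520 in replicate 1. After scaling to library size that was 1308 CPM in replicate 2 and 1416 CPM in replicate 1. Marker lists of the other brain cells were well detected, with median levels of 424 ± 49.4 TPM for neurons, 70.1 ± 2.78 TPM for astrocytes, 130 ± 13.2 TPM for oligodendrocytes and 22.5 ± 0.375 TPM for microglia (SD, n = 2). TPM is a length-corrected share of all transcripts and is given as deposited. The 5 defining endothelial markers Cldn5, Pecam1, Cdh5, Flt1 and Kdr were all present, the lowest being Kdr at 3.02 ± 0.099 TPM. Of 6 blood leukocyte markers, none reached 1 TPM, and Ly6g had 0 counts in both libraries, where the floor is 3 counts per library. Replicate 1 carried more haemoglobin and Ttr RNA, with values beside the results they touch. Counts were whole numbers (within 0.005) for 43 of the 50 genes. The other 7 (Ly6c1, Ly6a, Abcb1a, Slco1a4, Vwf, Col3a1 and Nid1) divided reads with other genes. A protein-coding gene on the opposite strand overlaps 5 of the 50: Fpgs overlaps Eng, A530084C06Rik overlaps Foxq1, Pcsk7 overlaps Tagln, and Col4a1 and Col4a2 overlap each other. Since the strand setting of the counting was not stated in the sources, reads of such pairs may be mixed.

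Of the 50 genes, 49 reached 1 TPM in both mice, against 26.1% of all annotated genes. The exception was Lum, which encodes lumican, a small proteoglycan of collagen fibrils, at 0.62 TPM in replicate 2 and 0.96 TPM in replicate 1. Most of the genes were modest in level: 34 averaged under 10 TPM and 15 from 10 to 100 TPM, and only Bsg exceeded 100 TPM. Their median was 6.85 ± 0.265 TPM, against 15.3 TPM for the 12754 expressed nuclear protein-coding genes. By subgroup the median was 11.2 ± 3.86 TPM for basement membrane, 8.67 ± 1.12 TPM for barrier endothelium, 5.08 ± 0.4 TPM for fibroblasts, 4.97 ± 1.25 TPM for smooth muscle and 3.79 ± 0.474 TPM for pericytes. The order of fibroblasts, smooth muscle and pericytes is not settled: smooth muscle lay within its spread of both others, and in the second transcript table it was below pericytes, at 5.23 TPM against 5.94 TPM. The endothelial median likewise lay within the spread of the basement membrane median. Basement membrane was the higher of the pair at 8.46 against 7.88 TPM in replicate 2 and 13.9 against 9.46 TPM in replicate 1. TPM was lower in replicate 2 for 43 of the 50 genes, and the median log2 TPM ratio of all genes was itself -0.20.

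**Figure D1:**
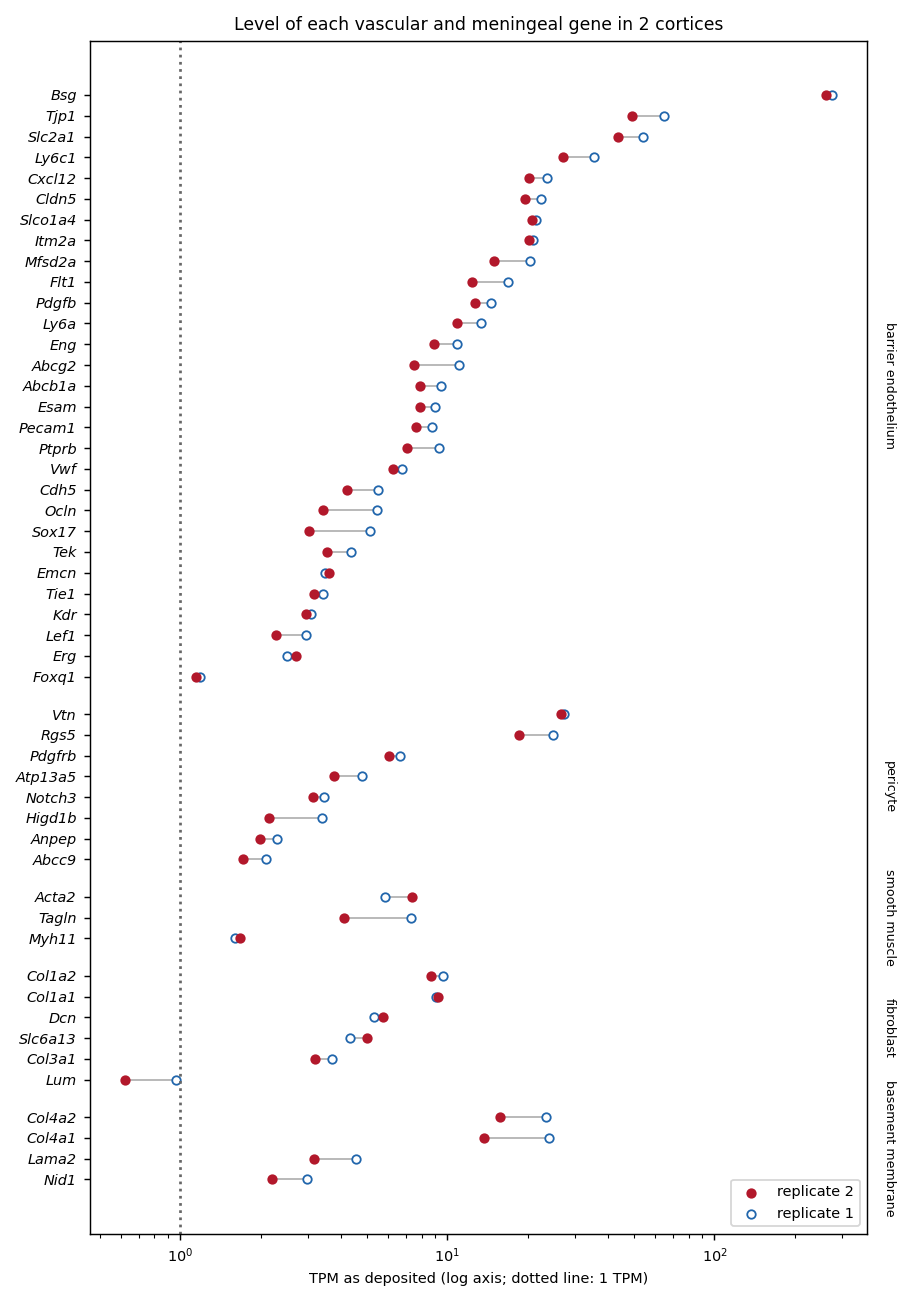
Deposited TPM (log axis) of the 50 genes, by subgroup and in order of mean level, in replicate 2 (filled) and replicate 1 (open). Bsg stands alone at 269 ± 9.35 TPM, most genes lie below 10 TPM, Lum lies below the dotted line at 1 TPM, and the widest gaps are those of Tagln and Col4a1.

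Among the junction genes, the highest level was that of Tjp1, which encodes the scaffold protein ZO-1. It had 48.97 TPM in replicate 2 and 64.50 TPM in replicate 1. ZO-1 is not confined to endothelium, being also found in astrocytes and neurons. Cldn5 encodes claudin-5, the main tight junction strand protein of brain endothelium, and had 19.60 TPM in replicate 2 and 22.50 TPM in replicate 1, from 653 counts in replicate 2 and 554 in replicate 1. It is a single-exon gene on the plus strand of chromosome 16, from 18776847 to 18778262 in mm10 (ENSMUSG00000041378.2). Ocln, for the junction protein occludin, was much lower at 3.43 TPM in replicate 2 and 5.46 TPM in replicate 1. The TPM ratio of Tjp1 to Ocln was 14.3 in replicate 2 and 11.8 in replicate 1 (second table: 12.4 and 9.35). Between them lay 3 adhesion genes: Esam, for an endothelial adhesion molecule, at 8.45 ± 0.792 TPM, Pecam1, for the adhesion receptor CD31, at 8.2 ± 0.834 TPM, and Cdh5, for VE-cadherin of adherens junctions, at 4.85 ± 0.905 TPM.

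The highest level of the 50 genes was that of Bsg, described with the transporters. It encodes basigin, a chaperone of monocarboxylate transporters that many cell types make. It had 262.02 TPM in replicate 2 and 275.24 TPM in replicate 1, which put it at the 98.6 percentile of expressed protein-coding genes. Slc2a1 encodes the glucose transporter GLUT1, found in endothelium and astrocytes, and had 43.58 TPM in replicate 2 and 54.20 TPM in replicate 1. Its counts were 3018 in replicate 2 and 2780 in replicate 1. It lies on the plus strand of chromosome 4, from 119108711 to 119137983 (ENSMUSG00000028645.11). Bsg stood above Slc2a1 by a TPM ratio of 5.55 ± 0.661. Slco1a4, for an organic anion transporter, followed at 21.1 ± 0.453 TPM and Mfsd2a, for the lipid transporter that restrains transcytosis, at 17.6 ± 3.76 TPM. The efflux pump genes Abcg2 and Abcb1a lay close together at 9.27 ± 2.55 TPM and 8.67 ± 1.12 TPM. Their order was not resolved: the TPM ratio of Abcb1a to Abcg2 was 1.05 in replicate 2 and 0.855 in replicate 1.

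Of the VEGF receptor genes, Flt1 (VEGFR1) stood above Kdr (VEGFR2). Flt1 had 12.37 TPM in replicate 2 and 16.92 TPM in replicate 1, while Kdr had 2.95 TPM in replicate 2 and 3.09 TPM in replicate 1. The TPM ratio of Kdr to Flt1 was 0.238 in replicate 2 and 0.183 in replicate 1, so Flt1 was the higher in both mice. VEGFR1 binds VEGF-A tightly but signals weakly, and VEGFR2 carries most of the signal for endothelial growth. Flt1 lies on the minus strand of chromosome 5, from 147561604 to 147726011 (ENSMUSG00000029648.13). Its coding transcripts with a measured share were a membrane-bound and a soluble form. Flt1-202, of 30 exons and 1333 codons, took 51.7% of the gene's TPM in replicate 2 and 53.0% in replicate 1. Flt1-203, of 13 exons and 688 codons, took 32.8% in replicate 2 and 30.1% in replicate 1. Noncoding transcripts, mainly Flt1-201, took the remaining 15.4% in replicate 2 and 16.9% in replicate 1. Flt1-203 is the soluble form, which lacks the membrane span and binds VEGF as a decoy. In the second transcript table Flt1-203 took 35.8% in replicate 2 and 30.9% in replicate 1, so both quantifiers and both mice placed it near the same share. Total RNA also holds unspliced RNA, and the end of Flt1-203 is intron for Flt1-202; the part of unspliced RNA in this share was not tested. The coding sequences of Flt1-203 and Flt1-202 are the same for 1972 bases and then part. The end of the Flt1-203 coding sequence is shown because it is the stretch that sets the soluble form apart, with the 92 bases of its own, in exon 13 at chr5:147639133-147639224, in capitals after 30 shared bases. The sequence was read from the GENCODE M21 transcript, 5′ to 3′ on the minus strand.
Flt1-203: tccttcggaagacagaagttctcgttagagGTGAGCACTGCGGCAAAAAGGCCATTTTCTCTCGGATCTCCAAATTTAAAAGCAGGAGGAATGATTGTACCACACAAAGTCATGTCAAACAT

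The angiopoietin receptor genes lay close together, Tek (Tie2) at 3.95 ± 0.58 TPM and Tie1 at 3.29 ± 0.17 TPM. Tie2 keeps mature endothelium quiescent, Tie1 modulates it, and the phosphatase VE-PTP, encoded by Ptprb, restrains Tie2. Ptprb had 8.18 ± 1.55 TPM. Eng, for the TGF-beta co-receptor endoglin, had 8.91 TPM in replicate 2 and 10.88 TPM in replicate 1. Among the ligands and co-receptors, Vegfb had 41.0 ± 1.63 TPM and Nrp1 12.5 ± 3.11 TPM, while Vegfa had 28.39 TPM in replicate 2 and 46.80 TPM in replicate 1. Angpt1 had 1.77 ± 0.297 TPM and Angpt2, its context-dependent antagonist, 0.46 ± 0.0707 TPM. In all, 7 of these 9 ligand and co-receptor genes reached 1 TPM in both mice.

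Cxcl12 encodes the chemokine of the receptor CXCR4 and had 20.17 TPM in replicate 2 and 23.63 TPM in replicate 1. A pair of transcripts shared most of it. Cxcl12-201, of 119 codons, took 42.2% in replicate 2 and 48.1% in replicate 1, and Cxcl12-202, of 89 codons, took 45.2% in replicate 2 and 41.5% in replicate 1. Which transcript led therefore differed between the mice in the first table, by less than 10 percentage points. In the second table Cxcl12-201 led in both, with 49.9% in replicate 2 and 52.9% in replicate 1. The longer form is the gamma isoform of CXCL12, whose added tail is rich in basic residues and binds heparan sulphate. Cxcl12-201 carries 90 coding bases that Cxcl12-202 lacks, in exon 4 at chr6:117176087-117176176. They are printed because they are all that separates the coding sequences of the pair, in capitals after 30 shared bases (plus strand, GENCODE M21).
Cxcl12-201: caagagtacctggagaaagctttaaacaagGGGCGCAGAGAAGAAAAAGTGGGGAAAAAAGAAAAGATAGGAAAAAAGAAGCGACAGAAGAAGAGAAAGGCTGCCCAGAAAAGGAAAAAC

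The remaining endothelial genes were spread from 31.2 to 1.16 TPM in mean level. Ly6c1 had 31.2 ± 5.83 TPM and Ly6a 12.1 ± 1.77 TPM; both encode GPI-anchored surface proteins of a multigene family and their counts were not whole numbers, so reads were divided with similar genes and their levels are uncertain. Itm2a, for a membrane protein enriched in barrier endothelium, had 20.5 ± 0.445 TPM, and Pdgfb, the ligand that recruits pericytes, had 13.6 ± 1.29 TPM. Neurons also make Pdgfb. Vwf, for the clotting factor von Willebrand factor, had 6.5 ± 0.361 TPM, and Emcn, for endomucin of veins and capillaries, had 3.55 ± 0.0849 TPM. The transcription factors were the lowest endothelial group, with Sox17 at 4.09 ± 1.5 TPM, Lef1 at 2.62 ± 0.481 TPM, Erg at 2.6 ± 0.134 TPM and Foxq1 at 1.16 ± 0.0283 TPM. Sox17 and Erg hold endothelial identity, LEF1 acts at the end of the Wnt pathway that induces the barrier, and Foxq1 is a forkhead factor of brain endothelium. The 12 genes of Wnt and Norrin signalling to endothelium all reached 1 TPM in both mice, with a median of 7.05 ± 0.417 TPM. Among them the ligand gene Wnt7b had 13.2 ± 1.88 TPM, its co-receptor genes Adgra2 (GPR124) and Reck 4.05 ± 1.22 TPM and 2.93 ± 0.863 TPM, and the Wnt target Axin2 15.1 ± 2.24 TPM.

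Among the pericyte genes, Vtn and Rgs5 stood well above the rest. Vtn encodes the matrix protein vitronectin and had 26.71 TPM in replicate 2 and 27.37 TPM in replicate 1. Rgs5 encodes a regulator of G protein signalling and had 18.57 TPM in replicate 2 and 24.88 TPM in replicate 1. Pdgfrb, the receptor of PDGF-B, had 6.05 TPM in replicate 2 and 6.64 TPM in replicate 1. Its TPM ratio to the ligand gene Pdgfb was 0.467 ± 0.0138, so the receptor gene was the lower of the pair in both mice. The other 5 were below 5 TPM: Atp13a5, for a P-type ATPase, Notch3, for the Notch receptor of mural cells, Higd1b, for a HIG1 domain protein, Anpep, for aminopeptidase N, and Abcc9, for the sulphonylurea receptor subunit SUR2. They ran from 4.29 ± 0.728 TPM for Atp13a5 to 1.9 ± 0.262 TPM for Abcc9. Higd1b rested on 29 counts in replicate 2 and 32 in replicate 1.

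The smooth muscle genes were low, at 6.62 ± 1.08 TPM for Acta2 (smooth muscle actin), 5.71 ± 2.28 TPM for Tagln (the actin-binding protein transgelin) and 1.64 ± 0.0495 TPM for Myh11 (smooth muscle myosin heavy chain). Tagln had 4.09 TPM in replicate 2 and 7.32 TPM in replicate 1, and its counts were 126 in replicate 2 and 105 in replicate 1. Replicate 2 is the deeper library, so raw counts cannot be set against TPM. The log2 TPM ratio of Tagln was -0.84, against a median of -0.20 for all genes. The log2 ratio of its counts, scaled as described below, was 0.07 (interval -0.31 to 0.46), against a median of 0.04. The effective length that the authors' table used for Tagln was 1218 bases in replicate 2 and 767 bases in replicate 1. The short transcript Tagln-202, of 3 exons, took 22.7% in replicate 2 and 58.2% in replicate 1. These shares rested on 6.33 counts in replicate 2 and 21.52 in replicate 1. Tagln-202 took 0% in both libraries of the second table, where Tagln had 5.27 TPM in replicate 2 and 5.19 TPM in replicate 1. The effective length differed at least 1.2-fold between the libraries for 2 of 48 genes with a mean count of 100 or more, against 4.36% of all genes above that count. The TPM ratio of Acta2 to Tagln was 1.81 in replicate 2 and 0.801 in replicate 1 in the gene table, and 2.88 in replicate 2 and 2.07 in replicate 1 of the second table. Acta2 was thus the higher in both mice of the second table but in replicate 2 alone of the gene table.

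Myh11 was divided mainly between a pair of head forms. A further coding transcript, Myh11-202, of 1938 codons, took 0% in replicate 2 and 10.6% in replicate 1. In the second table it took 10.8% in replicate 2 and 12.3% in replicate 1. Of the pair, Myh11-201, of 1972 codons, took 58.8% ± 12.5 of the gene's TPM (SD, n = 2), and Myh11-204, of 1979 codons, took 32.3% in replicate 2 and 39.4% in replicate 1. In the second table Myh11-204 took 33.5% in replicate 2 and 51.7% in replicate 1. Both tables thus held both forms in both mice, and the share of Myh11-204 was lower in replicate 2 in both. They rested on 271 counts for the whole gene in replicate 2 and 191 in replicate 1. The longer form has an insert in the myosin head that is known for faster smooth muscle contraction (the SM-B form). The insert, 21 bases in exon 6 at chr16:14248580-14248600, is shown in capitals with 30 coding bases on each side, since it is all that separates the coding sequences (minus strand, GENCODE M21).
Myh11-204: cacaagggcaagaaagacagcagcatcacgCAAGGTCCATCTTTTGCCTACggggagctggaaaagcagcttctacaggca

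The fibroblast genes were led by the type I collagen chains, which assemble 2 alpha-1 chains with 1 alpha-2 chain in each molecule. Col1a1 had 9.21 TPM in replicate 2 and 9.08 TPM in replicate 1, and Col1a2 had 8.69 TPM in replicate 2 and 9.65 TPM in replicate 1. Their TPM ratio was 1.0 ± 0.0841, so neither was higher beyond the spread in the gene table. In the second table it was 0.817 in replicate 2 and 0.871 in replicate 1, with Col1a2 the higher in both mice. Dcn, for the collagen-binding proteoglycan decorin, had 5.5 ± 0.304 TPM and Slc6a13, for the GABA and taurine transporter GAT2 of the leptomeninges, 4.66 ± 0.495 TPM. Col3a1, for type III collagen, had 3.46 ± 0.361 TPM. The ratio of Dcn to Lum was 9.23 in replicate 2 and 5.51 in replicate 1, with Lum resting on 37 counts in replicate 2 and 42 in replicate 1. Of 10 further fibroblast and meningeal markers, all 10 reached 1 TPM in both mice, from 1.96 ± 0.827 TPM for Crabp2 to 663 ± 110 TPM for Ptgds. Ptgds, the prostaglandin D synthase gene, is also active in oligodendrocytes.

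Of the basement membrane genes, the type IV collagen chains stood highest. Col4a1 had 13.75 TPM in replicate 2 and 23.93 TPM in replicate 1, and Col4a2 had 15.79 TPM in replicate 2 and 23.31 TPM in replicate 1. The chains assemble as 2 of alpha-1 with 1 of alpha-2, and the TPM ratio of Col4a1 to Col4a2 was 0.949 ± 0.11. Lama2, for the laminin alpha-2 chain of the astrocyte and pericyte side of the membrane, had 3.85 ± 0.969 TPM, and Nid1, for the linker protein nidogen, 2.58 ± 0.544 TPM. The other type IV collagen genes were far lower, from Col4a5 at 1.19 ± 0.318 TPM to Col4a3 at 0.45 ± 0.24 TPM. Of 14 further basement membrane genes, 9 reached 1 TPM in both mice, the highest being Sparc at 90.0 ± 3.86 TPM and Agrn at 58.2 ± 10.2 TPM, neither of which is confined to vessels.

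Col4a1 and Col4a2 lie head to head on chromosome 8. Col4a1 runs on the minus strand from 11198423 to 11312826 (ENSMUSG00000031502.11) and Col4a2 on the plus strand from 11312805 to 11449287 (ENSMUSG00000031503.13), with start sites 21 bases apart. Their RefSeq promoter windows (250 bases before to 50 after each start, build GRCm38.p6) overlap by 78 bases at chr8:11312777-11312854. Both windows are printed because they overlap, with the shared bases in capitals. Each is read in its own gene's direction, so the capitals of one are the reverse complement of the other. The Col4a1 window is chr8:11312777-11313076 on the minus strand and the Col4a2 window chr8:11312555-11312854 on the plus strand.
Col4a1: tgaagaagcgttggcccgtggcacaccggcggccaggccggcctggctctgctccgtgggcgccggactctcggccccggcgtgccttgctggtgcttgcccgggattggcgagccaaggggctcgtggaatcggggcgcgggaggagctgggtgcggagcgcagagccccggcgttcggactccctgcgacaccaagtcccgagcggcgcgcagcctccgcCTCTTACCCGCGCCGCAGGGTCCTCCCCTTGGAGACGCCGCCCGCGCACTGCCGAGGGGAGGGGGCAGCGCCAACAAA
Col4a2: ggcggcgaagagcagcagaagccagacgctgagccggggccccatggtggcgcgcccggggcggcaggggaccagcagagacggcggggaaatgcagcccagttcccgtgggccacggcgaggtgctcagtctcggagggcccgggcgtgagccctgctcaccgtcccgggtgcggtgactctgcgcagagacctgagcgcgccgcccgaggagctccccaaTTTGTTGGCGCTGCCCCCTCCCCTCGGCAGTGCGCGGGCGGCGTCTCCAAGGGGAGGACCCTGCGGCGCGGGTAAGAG

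The shared stretch holds the letters GGGCGG of a GC box, searched on both strands, as do 35.7% of all 32851 RefSeq windows and 24 of the 44 windows of the genes described here. RefSeq windows were found for 33 of the 50 genes. The search is a description of letters only. Any link between the shared stretch and the ratios of Col4a1 and Col4a2 between the mice was not tested.

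Between the mice, no gene of the list above the count limit passed the fold rules. The ratio is given as a log2 ratio of counts scaled by TMM (a trimmed mean over all genes), with a 95% exact interval that covers counting error only. Of the 48 genes above the count limit of 100, 0 differed 2-fold, against 0.713% of the 12615 genes above that limit, and 0 differed 1.5-fold, against 3.08%. Neither count stands apart from its background. The ratio was above 0 for 23 of the 48 genes, against 58.9% of all genes, and below 0 for 25, against 41.1%. The median log2 ratio of the 48 genes was -0.02, against 0.04 for all genes. Most of the genes, 43 of 48, lay between the 5th and 95th percentiles of all genes, at -0.35 and 0.35. Scaling to the spike-ins lowered every ratio alike, with a median of -0.42 for all genes and -0.49 for the 48 genes. The list lay 0.06 below the median of all genes. Each scaling (TMM, DESeq2 size factors, total counts or spike-ins) shifts all genes alike. The distance from that median therefore hardly depends on the scaling, and its agreement between scalings is not a test. Subgroup medians below are given relative to that median, while counts above or below 0 use the TMM ratios.

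The subgroups did not move as a block. Basement membrane genes lay 0.34 below the median of all genes and smooth muscle genes 0.27 above it. The fibroblast median was 0.19 above, the pericyte median 0.10 below and the endothelial median 0.07 below. In the second table smooth muscle lay 0.12 above and basement membrane 0.29 below. With the TMM scaling, counting intervals lay wholly above 0 for 8 of the 48 genes, against 29.5% of all genes, and wholly below 0 for 9, against 17.5%. These shares depend on depth and on where 0 is set.

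**Figure D2:**
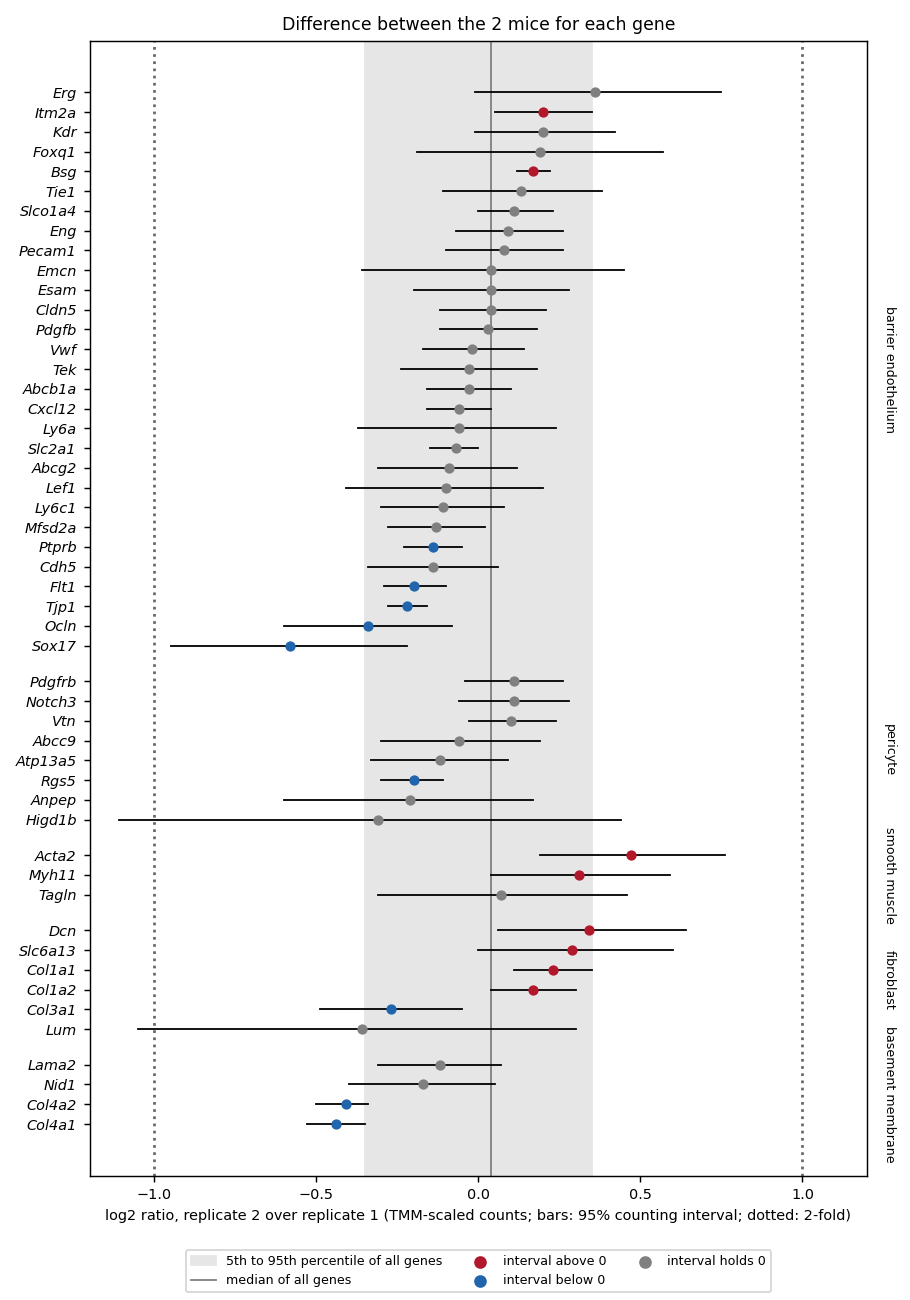
Log2 ratio of TMM-scaled counts, replicate 2 over replicate 1, for each of the 50 genes by subgroup, with 95% counting intervals (bars), the 5th to 95th percentile of all genes (grey band) and 2-fold (dotted). Points are red where the interval lies above 0, blue where it lies below 0 and grey otherwise; Col4a1, Col4a2, Sox17 and, below the count limit, Lum lie left of the band, Acta2 and Erg lie right of it, and none of the 48 genes above the count limit of 100 reaches 2-fold.

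The clearest difference was that of the type IV collagen pair. Col4a1 had 1789 counts in replicate 2 and 2127 in replicate 1, a log2 ratio of -0.44 (interval -0.53 to -0.35). Col4a2 had 2372 counts in replicate 2 and 2768 in replicate 1, a log2 ratio of -0.41 (interval -0.50 to -0.34). Both were lower in replicate 2, and they stood at percentiles 3.34 and 3.76 of all genes. Lama2 at -0.12 and Nid1 at -0.17 had intervals that held 0. Among the other basement membrane genes 7 of 11 with enough counts were below 0, against 41.1% of all genes, from -0.74 for Col4a4 to 0.34 for Lama4, with Hspg2 (perlecan) at -0.31 and Lama1 at -0.32. Of the further fibroblast and meningeal markers, 8 of 9 were below 0, also against 41.1%, with Col6a1 at -0.52 and Ogn (osteoglycin) at -0.53. Their median of -0.19 lay on the other side of the all-gene median from the fibroblast genes of the list, so the fibroblast genes as a whole had no common direction.

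Smooth muscle and most fibroblast genes lay on the other side of the all-gene median. Acta2 had 262 counts in replicate 2 and 165 in replicate 1, a log2 ratio of 0.47 (interval 0.19 to 0.76). Acta2 lies on the minus strand of chromosome 19, from 34241090 to 34255590 (ENSMUSG00000035783.9). It stood 0.43 above the median of all genes, at percentile 97.8. Myh11 had 271 counts in replicate 2 and 191 in replicate 1, a log2 ratio of 0.31 (interval 0.04 to 0.59). Tagln, at 0.07, had an interval that held 0. The 3 further smooth muscle markers with enough counts gave 0.16 for Tpm2, 0.12 for Myl9 and -0.30 for Smtn, so smooth muscle genes beyond the list did not share 1 direction. Among the fibroblast genes, Dcn had 240 counts in replicate 2 and 165 in replicate 1 (log2 ratio 0.34, interval 0.06 to 0.64). The log2 ratio was 0.29 for Slc6a13, 0.23 for Col1a1 and 0.17 for Col1a2, against -0.27 for Col3a1 (interval -0.49 to -0.05). The counts of Col3a1 were not whole, so some of its reads were divided with other genes. Lum, below the count limit, had a ratio of -0.36 with an interval from -1.05 to 0.30.

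Among the endothelial genes the lowest ratio was that of Sox17, with 112 counts in replicate 2 and 147 in replicate 1. Its log2 ratio was -0.58 (interval -0.95 to -0.22) at percentile 1.97, and -0.38 in the second table. Sox17 lies on the minus strand of chromosome 1, from 4490931 to 4497354 (ENSMUSG00000025902.13). Ocln followed at -0.34 (interval -0.60 to -0.08), Tjp1 at -0.22, Flt1 at -0.20 and Ptprb at -0.14, all with intervals below 0. At the other end Erg, with 146 counts in replicate 2 and 99 in replicate 1, had 0.36 with an interval of -0.01 to 0.75. Itm2a at 0.20 and Bsg at 0.17 had intervals above 0. The other 21 endothelial genes had intervals that held 0, from Kdr at 0.20 to Cdh5 at -0.14, with Cldn5 at 0.04 and Slc2a1 at -0.07. In the pericyte subgroup only Rgs5 had an interval off 0, at -0.20 (interval -0.30 to -0.11). Pdgfrb and Notch3 had 0.11, Vtn 0.10, Abcc9 -0.06, Atp13a5 -0.12, Anpep -0.21 and Higd1b, below the count limit, -0.31.

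The haemoglobin genes and Ttr differed more between the libraries than any of the 48 vascular genes. The 5 red blood cell markers had a median log2 ratio of -0.66, with ratios from -0.75 for Hba-a1 to -0.22 for Alas2, and a summed level of 457 TPM in replicate 2 and 866 TPM in replicate 1. Both libraries therefore held haemoglobin RNA, more in replicate 1. Of the 6 choroid plexus markers, Ttr, for transthyretin, had 8.29 TPM in replicate 2 and 70.06 TPM in replicate 1 (log2 ratio -2.82), and the list summed to 10.3 TPM in replicate 2 and 73.9 TPM in replicate 1, most of it Ttr. The others were low and mixed: Kl had a log2 ratio of -0.40, Clic6 had 21 counts in replicate 2 and 58 in replicate 1, Folr1 5 in replicate 2 and 11 in replicate 1, Kcne2 3 in replicate 2 and 4 in replicate 1, and Otx2 8 in replicate 2 and 4 in replicate 1. The 5 perivascular macrophage markers summed to 4.29 TPM in replicate 2 and 7.05 TPM in replicate 1, with Mrc1 at -0.31. The haemoglobin genes, Ttr and the type IV collagen pair were lower in replicate 2 together; the part of blood, choroid plexus or adjoining tissue in the collagen difference was not tested. Immediate early genes, which neurons and other cells switch on within minutes of a stimulus, differed the other way, with a median log2 ratio of 1.60. With the TMM scaling 10 of 12 were at least 2-fold higher in replicate 2. Of all genes above the count limit, 0.713% differed 2-fold either way. The part of immediate early genes in the result for any vascular gene was not tested.

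**Figure D3:**
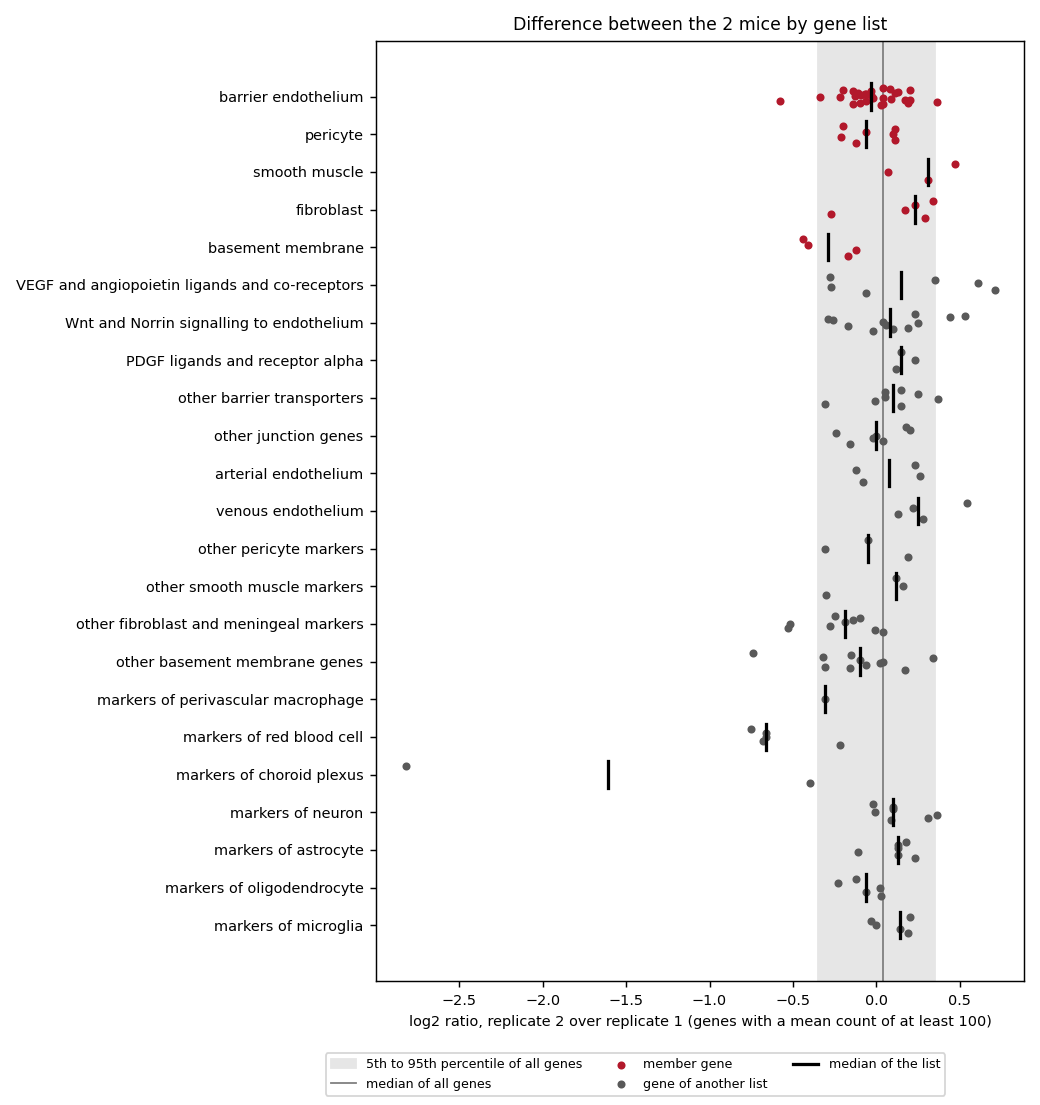
Log2 ratio of TMM-scaled counts, replicate 2 over replicate 1, of each gene above the count limit of 100, by list; red points are the 50-gene list, grey points other lists, and black bars list medians. The choroid plexus marker Ttr lies furthest left at -2.82, followed by Hba-a1 at -0.75 and Col4a4 at -0.74; blood leukocyte markers had too few counts, and immediate early genes (median 1.60) are off this plot.

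Genes of VEGF, angiopoietin, Wnt and Norrin signalling, for ligands and receptors alike, also varied. The cell types that held these transcripts were not tested. Vegfa had 1467 counts in replicate 2 and 1557 in replicate 1, a log2 ratio of -0.28 (interval -0.38 to -0.17), while Vegfb had 0.35 (interval 0.22 to 0.48). The co-receptor gene Nrp2 had the highest ratio of these lists, 0.71 (interval 0.58 to 0.86), with Nrp1 at -0.27. The Tie2 ligand gene Angpt1 had 0.61 (interval 0.28 to 0.95). Of the Wnt and Norrin genes 8 of 12 had a ratio above 0, near the 58.9% of all genes, with Wnt7b at 0.53, Ndp (norrin) at 0.44 and Adgra2 at -0.29. Of the 9 ligand and co-receptor genes, 6 were above the count limit. Of these Nrp2 and Angpt1 passed 1.5-fold, against 3.08% of all genes, and 0 passed 2-fold, against 0.713%. Venous markers had a median ratio of 0.25 over 4 genes, with Nr2f2 (COUP-TFII) at 0.54, and arterial markers 0.08 over 4 genes. Nr2f2 is also a factor of interneurons. Other barrier transporters had a median of 0.10, from -0.31 for Abcc4 to 0.37 for Slc16a1, and other junction genes a median of -0.00.

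Transcript use was mostly shared by the mice. Of the 46 genes with more than 1 annotated transcript, 40 had the same leading transcript in both, against 89.4% of protein-coding genes above the count limit. The exceptions were Pecam1, Cxcl12, Sox17, Erg, Tagln and Anpep. The leading transcript was the same in both transcript tables for 37 of the 46, against 77.7% of protein-coding genes, so both shares were close to the background. The share of the leading transcript differed by at least 20 percentage points between the mice for 6 of the 46 genes. That is a larger part than the 6.1% of protein-coding genes above the count limit. The 46 genes were not held to that limit, which Higd1b does not reach. The 6 were Ly6c1, Eng, Sox17, Tagln, Anpep and Col3a1. In the second table the same transcripts were less than 20 percentage points apart for all but Anpep. Shares in replicate 2 and replicate 1 were 25.6% and 19.9% for Ly6c1-201, 32.4% and 19.5% for Eng-201, 27.7% and 13.7% for Sox17-202. They were 100% and 96.6% for Tagln-201, 58.8% and 53.7% for Col3a1-201, 1.49% and 52.1% for Anpep-202. The background was not computed there. The widest gap was that of Anpep, whose leading transcript Anpep-202 took 19.1% in replicate 2 and 67.8% in replicate 1. Anpep rested on 115 counts in replicate 2 and 117 in replicate 1.

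**Figure D4:**
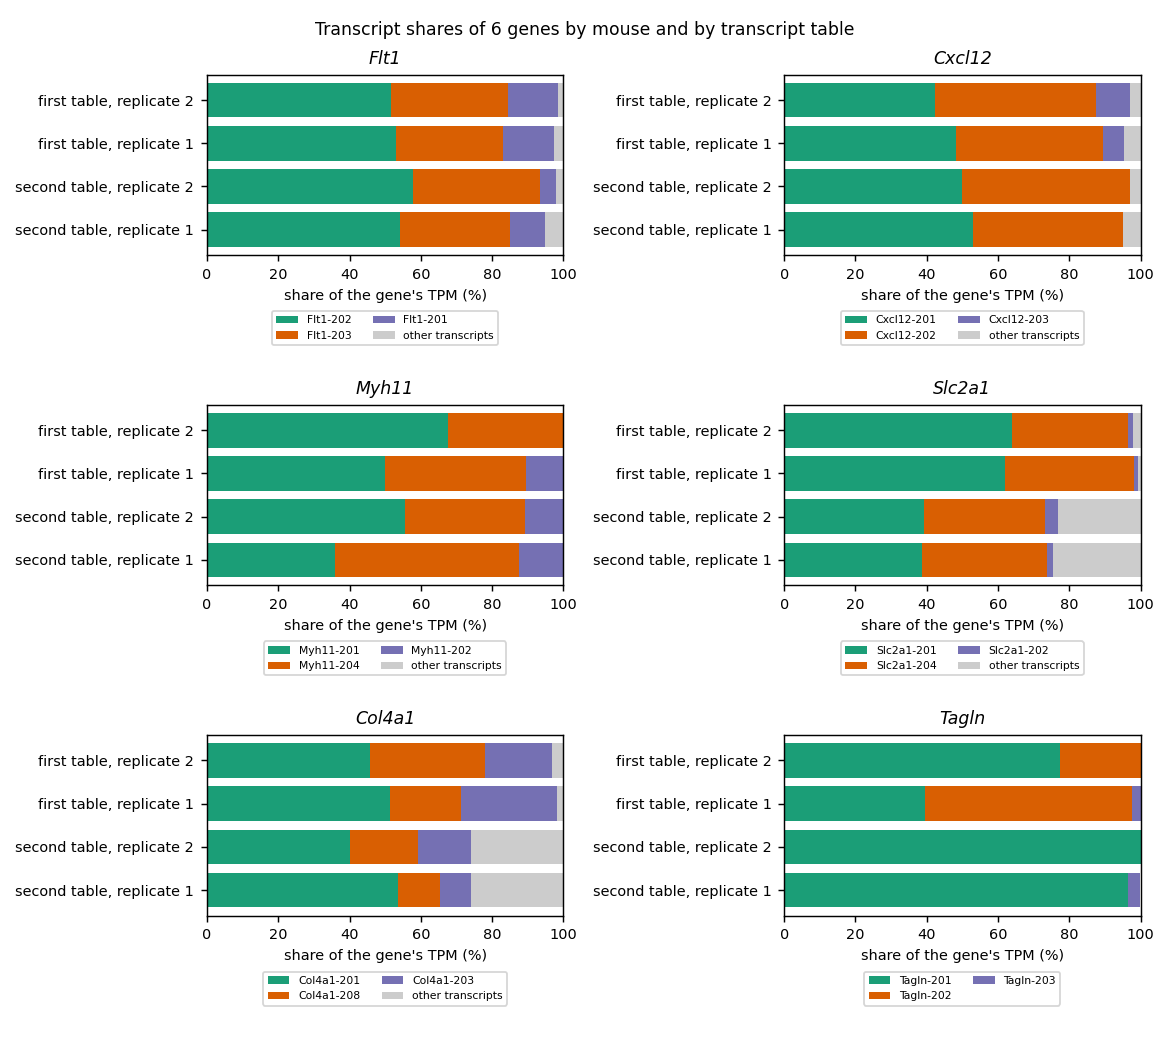
Share of each gene's TPM (%) taken by its 3 leading transcripts and the rest, in replicate 2 and replicate 1 of the first and second transcript tables. The 2 leading forms of Flt1 and of Cxcl12 keep similar shares in all 4 bars, and the third form of each takes less in the second table. Tagln-202 takes 22.7% in replicate 2 (6.33 counts) and 58.2% in replicate 1 (21.52 counts) of the first table and 0% in the second.

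Transcripts annotated as noncoding or as targets of nonsense-mediated decay took a median of 1.17% of the TPM of these genes, against 9.54% for the 11844 protein-coding genes above the count limit. They took at least 20% in both mice for 5 genes (Slc2a1, Tjp1, Vwf, Col4a1 and Lama2), against 27.9% of protein-coding genes. For Slc2a1 this was Slc2a1-204, a decay target with 32.8% in replicate 2 and 36.4% in replicate 1, and in the second table with 34.2% in replicate 2 and 34.9% in replicate 1. For Col4a1 it was mainly Col4a1-208, also a decay target, with 32.4% in replicate 2 and 20.1% in replicate 1. Its share was higher in replicate 2 in both tables, being 19.1% in replicate 2 and 11.6% in replicate 1 of the second. Ptprb held its forms steadily, with Ptprb-201 at 74.9% in replicate 2 and 74.4% in replicate 1. A single leading transcript took a mean share above 95% of Abcb1a, Kdr, Rgs5, Notch3, Nid1 and Col1a1, among others.

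Levels also depended on the quantifier. The second table gave higher TPM for 49 of the 50 genes, with Tagln the exception at a ratio of 0.916, and the median ratio over expressed protein-coding genes was 1.57. Cdh5 lay furthest above, at 2.35, beyond the 95th percentile of 2.29. Vwf at 1.16 and Lama2 at 1.18 lay, with Tagln, below the 5th percentile of 1.24. The ratio of Tek to Tie1 was 1.12 in replicate 2 and 1.28 in replicate 1 of the gene table, and 0.992 in replicate 2 and 1.14 in replicate 1 of the second table, so the order of these receptor genes is not resolved. The ratio of Abcb1a to Abcg2 was 0.696 in replicate 2 and 0.56 in replicate 1 of the second table, which puts Abcg2 higher in both mice there.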

How the data were processed

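The authors deposited 3 tables per library. Per the file headers, expected counts (reads divided among the features they fit) and TPM fill the gene table and one transcript table, here called the first. The other, called the second, holds estimated counts and TPM from another quantifier. The labels give the build mm10, and the deposited notes the annotation GENCODE M21; aligner, versions and strand setting were not stated there. Quantification against C57BL/6J may lose reads of the CAST/EiJ allele, which was not tested. Each library has its own animal in the labels, with a shared donor record.

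Expected counts were rounded, scaled by TMM (edgeR 4.0.16, R 4.3.3) with a prior count of 2, and given as log2 ratios with 95% Clopper-Pearson intervals, which cover counting error only. With 1 library per mouse no test was run; instead, genes past 2-fold at a mean count of 100 or more were counted. DESeq2 1.42.0 gave size factors. Python 3.11.15, pandas 2.3.3, scipy 1.17.1 and matplotlib 3.10.9 did the rest, and the ratio step was tested on simulated data. A transcript's share is its percent of the summed TPM of its gene. All 50 genes, the companion lists and the pairs were named by fixed lists, chosen with earlier results of these data known.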

Additional observations from a re-analysis of the deposited data

How the results depend on the processing

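The count of 49 genes at 1 TPM or more was 28 at a threshold of 5 TPM, 50 at 0.5 TPM, in the second transcript table and after rescaling over nuclear protein-coding genes, and 49 without either replicate in turn. The median level of 6.85 TPM was 11 TPM in the second transcript table and 15.5 TPM when TPM was rescaled over nuclear protein-coding genes, and ran from 6.66 to 7.04 TPM without either replicate. The median log2 ratio of -0.02 was -0.09 with total counts, -0.49 with spike-ins and 0.00 in the second table. With spike-ins 1 gene, Sox17, passed 2-fold, against 0 under the other scalings, prior counts and count limits. Single ratios left their counting interval for 0 of 50 genes with DESeq2 size factors, 0 in the second table, 2 with total counts and 48 with spike-ins. The spike-in scaling shifts all genes alike. Leading transcript shares moved by at least 1 SD (n = 2) between tables for 34 of 46 genes, and TPM ratios of pairs for 10 of 12. This SD can be near 0, so the counts do not measure the size of a move. Notch3-201, at 100% in both tables with an SD of 0, counted as moved. Anpep-202, at 43.5% and 26.8% with an SD of 34.5, did not. The cause of the moves was not tested. Low counts limit Higd1b and Lum most.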
